A study of Homo sapiens with 4 samples.

Results

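The Prader-Willi region is taken here as the CpG sites of chromosome 15 from base 25000000 to 26000000 of hg19 (GRCh37), a stretch of 1 Mb that runs from upstream of SNRPN through the SNORD116 and SNORD115 small nucleolar RNA (snoRNA) arrays and UBE3A into ATP10A. It was defined by its coordinates and holds 10586 CpGs of the 27999103 on the autosomes and X, of which 10278 had at least 1 read in every library. The assay was enzymatic methyl sequencing (EM-seq), which converts cytosines without a methyl group so that they appear as T, whereas those with one remain C. The mCG level of a stretch is the share, in percent, of reads over its CpGs that show C. The cells were HEK293T, a kidney line of human embryonic origin, and were wild type (WT, 2 libraries) or knocked out for ZNF274 (ZNF274KO, 2 libraries), with no other treatment named in the labels. The knockout cells were made with Cas9 and guides on both sides of ZNF274, selected with puromycin and sorted as single cells, so the knockout and the cloning of a line cannot be told apart here. Whether the libraries of a group come from separate clones or cultures is not given in the sources used here. The p-values therefore measure only the spread between these libraries, which may be technical.

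The region is an imprinted domain, in which genes are expressed from the copy of 1 parent. In most tissues the copy inherited from the mother is methylated at the imprinting centre over the first exon of SNURF and SNRPN, and the copy from the father is unmethylated there and is the one transcribed. That transcription starts with SNURF-SNRPN, which encodes a spliceosome protein, and continues as SNHG14, the long host transcript whose introns hold the C/D box snoRNAs of the SNORD116 and SNORD115 families and whose far end runs antisense through UBE3A. Loss of the paternal transcripts, with SNORD116 as the main candidate, gives Prader-Willi syndrome, and loss of maternal UBE3A, a ubiquitin ligase that neurons transcribe from the maternal copy, gives Angelman syndrome. ZNF274 is a KRAB zinc finger protein known to bind within the SNORD116 array, which is why this array is of interest in its knockout.

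The libraries gave 53695 to 65361 reads over the CpGs of the region, with a read over several CpGs entering once for every CpG, and a mean of 5.07 to 6.17 reads per CpG. The median was 5 or 6 reads per CpG in the region, against 8 to 10 per covered CpG over the genome. The genome median thus leaves out CpGs without a read. The deleted gene itself checked the labels: the 501 CpGs of the ZNF274 body held 5158 and 4274 reads in WT 1 and WT 2, against 0 and 14 in ZNF274KO 1 and ZNF274KO 2. Genome-wide, the WT level averaged 59.8% ± 0.819 and the ZNF274KO level 59.3% ± 1.29 (SD, n = 2). These 4 libraries hold no expression values, and the label HEK293T was not checked here.

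The sequences that the results turn on come from the GRCh37 reference, plus strand, 5′ to 3′, with every CpG in capitals. The first is the stretch of 300 bases with the most CpGs in the imprinting centre, chr15:25200739-25201038, which lies inside SNURF just after its start and holds 28 CpGs.

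imprinting centre: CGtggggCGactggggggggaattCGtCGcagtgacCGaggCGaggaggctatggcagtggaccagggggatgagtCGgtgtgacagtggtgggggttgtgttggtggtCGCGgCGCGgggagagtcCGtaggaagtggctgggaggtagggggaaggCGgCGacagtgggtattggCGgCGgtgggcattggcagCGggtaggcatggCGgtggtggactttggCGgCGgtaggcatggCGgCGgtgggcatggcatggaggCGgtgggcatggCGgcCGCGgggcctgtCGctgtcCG

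The next are SNORD116 copies, shown because they are the array's own genes and because 9 of the 25 annotated copies hold as many as 4 CpGs, the most of any copy. SNORD116-3 (chr15:25302007-25302101) has the same 95 bases as SNORD116-9, and SNORD116-8 (chr15:25315579-25315673) differs from both by 2 bases. SNORD116-17 (chr15:25328735-25328826) has the same 92 bases as SNORD116-19, and SNORD116-16 (chr15:25327915-25328006) differs from both by 3.

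SNORD116-3: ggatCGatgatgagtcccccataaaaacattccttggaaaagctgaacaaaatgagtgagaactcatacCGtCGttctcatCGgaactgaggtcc
SNORD116-8: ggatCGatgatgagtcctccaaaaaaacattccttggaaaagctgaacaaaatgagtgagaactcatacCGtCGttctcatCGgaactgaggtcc
SNORD116-17: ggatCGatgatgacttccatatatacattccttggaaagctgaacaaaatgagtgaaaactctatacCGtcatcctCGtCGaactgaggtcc
SNORD116-16: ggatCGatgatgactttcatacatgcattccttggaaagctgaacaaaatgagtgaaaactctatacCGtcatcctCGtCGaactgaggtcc

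The last is the stretch of 300 bases with the most CpGs, 12, in the tile whose level differed most between the groups. It is chr15:25913007-25913306, in intergenic sequence beyond the end of ATP10A, a gene on the minus strand.

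largest difference: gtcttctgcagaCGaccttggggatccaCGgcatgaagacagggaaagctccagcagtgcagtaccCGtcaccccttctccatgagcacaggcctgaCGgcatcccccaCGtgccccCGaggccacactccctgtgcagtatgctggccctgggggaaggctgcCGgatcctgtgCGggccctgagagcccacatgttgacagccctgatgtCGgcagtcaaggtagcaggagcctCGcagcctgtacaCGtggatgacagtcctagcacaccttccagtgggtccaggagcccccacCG

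Over the whole region WT 1 had an mCG level of 24.2% and WT 2 of 22.4%, while ZNF274KO 1 had 32.3% and ZNF274KO 2 had 27.2%. Both knockout libraries stood above both WT libraries, with a WT mean of 23.3% ± 1.27 and a ZNF274KO mean of 29.8% ± 3.61 (SD, n = 2) and a difference of 6.46 percentage points. An exact two-sided permutation test of 2 libraries against 2 cannot give a p under 0.333, and it gave 0.333 here. The genome-wide level differed by -0.541 points in the same libraries, so the difference of the region had the opposite sign. ZNF274KO 1 was the higher of the knockout libraries, and without it the difference was 3.91 points.

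Levels changed abruptly along the region in every library. The region was divided without gaps into 12 segments at gene boundaries. In WT, the segments from the left edge to the end of the SNORD115 array had means between 6.27% and 15.3%, apart from the imprinting centre at 70.6%. The segment from SNORD115 to UBE3A was at 35.3%, UBE3A at 76.5%, the stretch from UBE3A to ATP10A at 22.5% and the part of ATP10A inside the region at 41.1%. The knockout libraries followed the same outline.

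**Figure D1:**
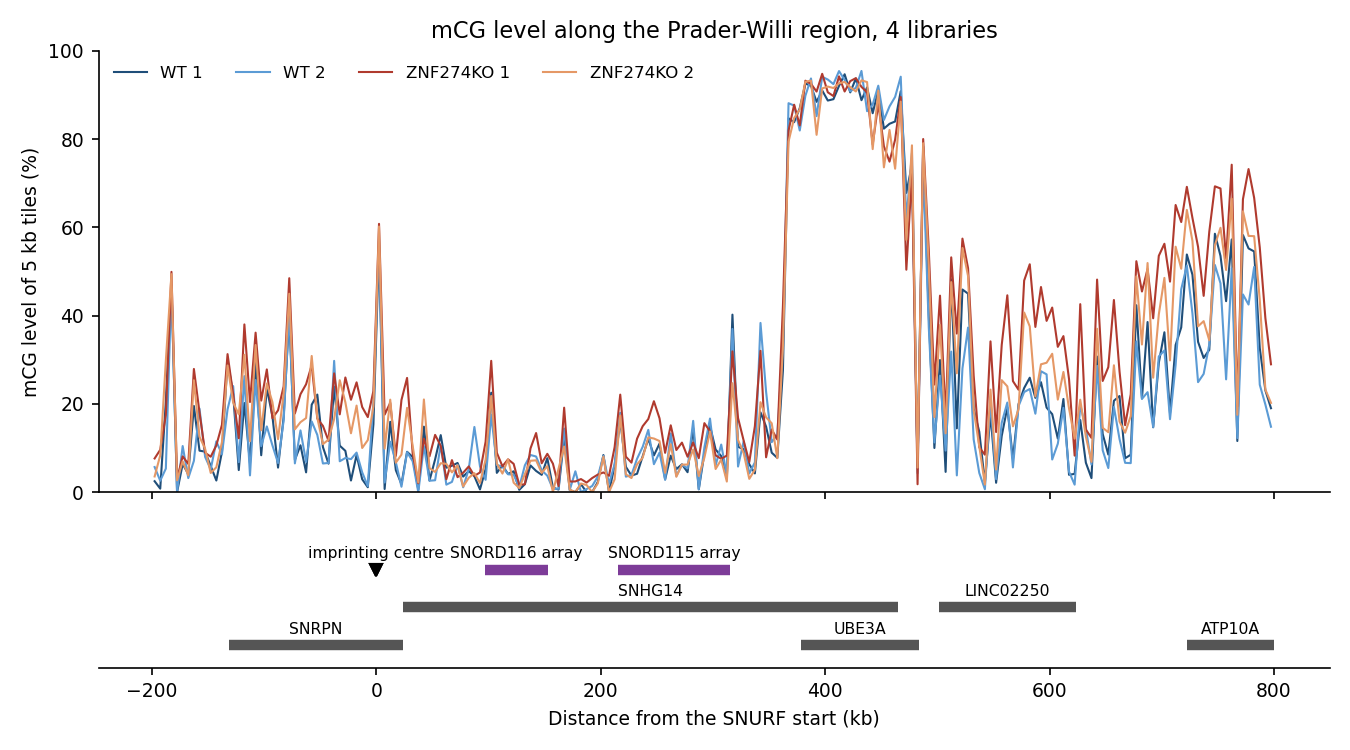
The mCG level (y axis, percent) of each of the 200 tiles of 5 kb is plotted against the distance of the tile's middle from the SNURF start (x axis, kb), with 1 line per library and the main genes and snoRNA arrays drawn to scale below. The 4 lines overlap over most of the snoRNA arrays and the UBE3A block, with ZNF274KO 1 above the others in parts of the arrays, and the knockout lines lie above the WT lines in 21 of 26 tiles over the SNRPN upstream exons and in 40 of 47 between UBE3A and ATP10A.

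The region was tested in 200 tiles of 5 kb, all of which had at least 20 reads and 5 CpGs in every library. In edgeR's quasi-likelihood test, fitted over the 563514 tiles of the genome, 12 tiles of the region rose in ZNF274KO at an adjusted p under 0.05, which is 6% of the region against 0.473% of all tiles. None fell, against 0.013% of all tiles, and 3 were lower at an unadjusted p under 0.05, beside 18250 of the 563514 tiles. By limma 2 of the 12 were called and none fell, beside 856 of 563514 tiles called over the genome. At an unadjusted p under 0.05, 77 tiles (38.5%) were higher, against 3.27% of all tiles, and in 105 (52.5%) both knockout libraries lay above both WT libraries, against 13.5% of all tiles. The opposite order was seen in 17 tiles, which is 8.5% against 22.3% of all tiles. The median difference over the 200 tiles was 4.04 points, beside -0.582 points over all tiles of the genome, and single tiles ranged from -10.9 to 29.3 points.

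The tiles of the region start from low levels, with a WT median of 11.9% beside 62.6% over the genome. Among the 91 tiles under 10% in WT the median difference was 2.43 points, beside 0.242 points for the 59748 tiles of the genome in the same range. Among the 27 tiles from 25% to 50% it was 13.0 points, beside 0.972 for 89113 tiles of the genome. Among the 23 tiles at 75% or more it was -0.102 points, beside -1.33 for 183422 tiles. Among the 51 tiles from 10% to 25% it was 6.91 points, beside 0.349 for 65867 tiles of the genome. Among the 8 tiles from 50% to 75% it was 11.5 points, beside -0.690 for 165364 tiles. The part of the starting level in the difference was not tested.

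The 12 called tiles lay in 3 groups. Of these, 6 had their middle between 62.6 kb before and 27.4 kb after the SNURF start, 1 lay in the SNORD115 array, and 5 between UBE3A and ATP10A. ZNF274KO 1 was above ZNF274KO 2 in all 12 and in 165 of the 200 tiles. Without ZNF274KO 1, 3 of the 12 were still called, at 25190001, 25485001 and 25910001, and no other tile was. Without ZNF274KO 2, WT 1 or WT 2 the counts were 31, 37 and 27, of which 30, 36 and 27 were higher. The counts over the genome moved as well, from 2668 higher and 73 lower with all libraries to 1896 in all without ZNF274KO 1 and to 3800, 5012 and 6526 without ZNF274KO 2, WT 1 and WT 2.

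**Figure D2:**
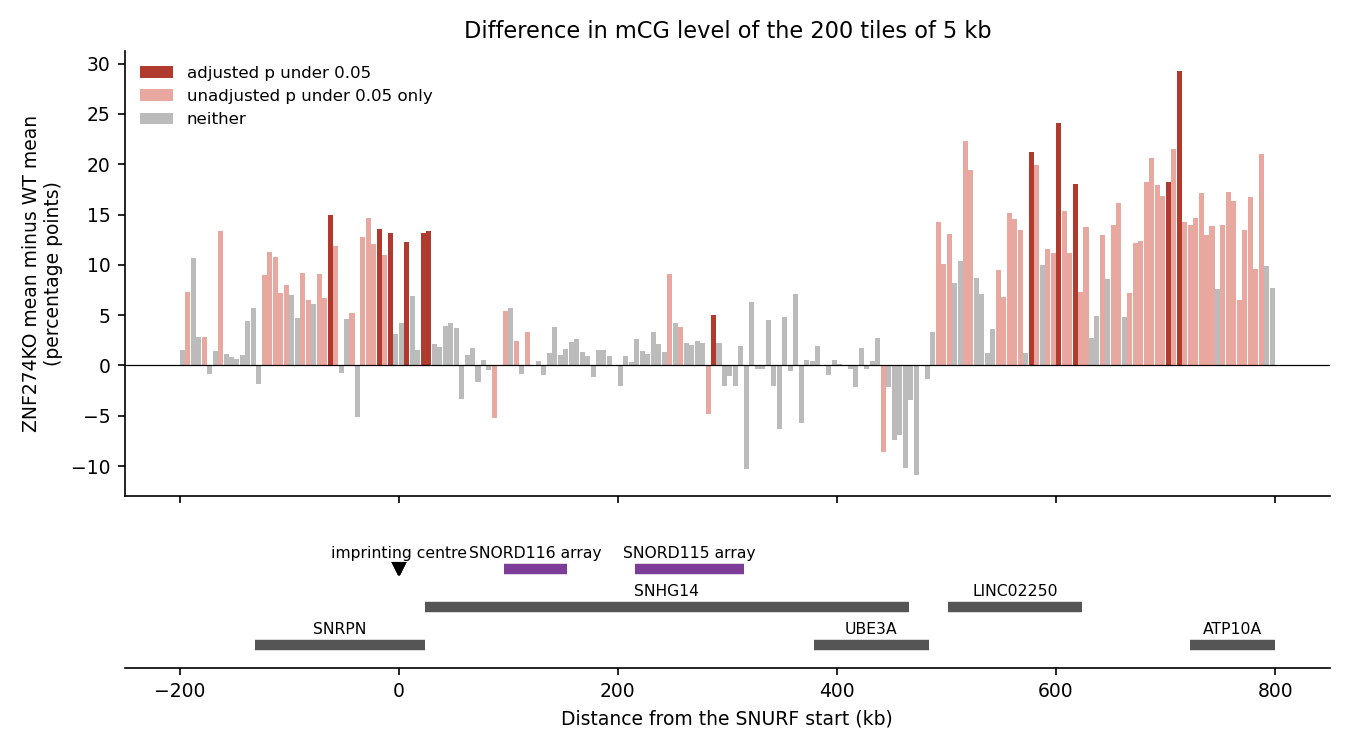
Each bar is the difference between the ZNF274KO and WT means (y axis, percentage points) of 1 tile of 5 kb at its distance from the SNURF start (x axis, kb), coloured by edgeR's adjusted and unadjusted p, with genes drawn to scale below. The 12 called tiles all point up, the largest by 29.3 points, and the bars over the snoRNA arrays are short.

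The SNRPN upstream exons and the body of SNURF-SNRPN were low in WT and higher in both knockout libraries. Before the first of those exons, 638 CpGs were at 15.8% and 14.9% in WT and 20.1% and 19.5% in ZNF274KO, with none of 14 tiles called by edgeR or limma and 3 higher at an unadjusted p under 0.05. SNRPN starts far upstream of the imprinting centre in the annotation, at base 25068784, through alternative first exons. The 1625 CpGs from there to 1 kb before the SNURF start had levels of 14.6% and 14.8% in WT and 24.1% and 20.3% in ZNF274KO. Both knockout libraries lay above both WT libraries, with means of 14.7% ± 0.158 and 22.2% ± 2.65 (SD, n = 2) and a difference of 7.48 points. Of 26 tiles there, 3 were called higher and 18 were higher at an unadjusted p under 0.05.

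The tile with the lowest p among them, at 25190001 to 25195000 and just before the imprinting centre, was at 1.11% in WT 1 and 1.35% in WT 2 and at 17.0% in ZNF274KO 1 and 11.8% in ZNF274KO 2. It rose by 13.2 points (edgeR adjusted p 0.0024) from 200 to 271 reads per library. The tile at 25135001 to 25140000, which includes a copy of the snoRNA U13, was at 4.48% and 6.84% in WT and at 24.4% and 16.8% in ZNF274KO, a rise of 14.9 points (edgeR adjusted p 0.00556). The remaining called tile, at 25180001 to 25185000, was at 8.41% and 8.96% in WT and 24.9% and 19.6% in ZNF274KO (edgeR adjusted p 0.023). In each of these tiles WT was low and the knockout libraries stood apart from each other by more than the WT libraries did.

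After the imprinting centre, the remaining 234 CpGs of SNURF-SNRPN had levels of 9.84% and 11.5% in WT and 21.3% and 16.9% in ZNF274KO. Of the 5 tiles there, 2 were called higher. The tile at 25205001 to 25210000, in the body of SNURF, went from 0.712% and 2.17% in WT to 17.6% and 9.85% in ZNF274KO (edgeR adjusted p 0.00682). The tile at 25220001 to 25225000, over the end of SNRPN, went from 1.82% and 1.22% in WT to 20.9% and 8.5% in ZNF274KO (edgeR adjusted p 0.0385). The whole SNRPN body, 1948 CpGs from 25068784 to 25223870, was called as well, at 16.8% and 17.1% in WT and 26.1% and 22.03% in ZNF274KO (7.14 points, edgeR adjusted p 0.0301). The shorter SNURF body, with 289 CpGs of which 66 lie in the imprinting centre, was at 26.2% and 25.5% in WT and 32.4% and 29.7% in ZNF274KO and was not called (edgeR adjusted p 0.682). Without ZNF274KO 1 the difference of the SNRPN body was 5.11 points.

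The imprinting centre stood between 70.1% and 76.6% and was not called. Its 88 CpGs, from 1 kb before to 1 kb after the SNURF start at base 25200134, had levels of 70.996% (WT 1) and 70.1% (WT 2) and of 71.8% (ZNF274KO 1) and 76.6% (ZNF274KO 2). The group means were 70.6% ± 0.623 and 74.2% ± 3.35 (SD, n = 2), from 350 to 562 reads per library. The knockout libraries were both the higher, but ZNF274KO 1 exceeded WT 1 by less than the WT libraries differed from each other. The difference of 3.65 points was not called (edgeR p 0.358, adjusted p 0.913, and exact permutation p 0.333).

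The imprinting centre was not uniform. The 1 kb before the SNURF start, with 22 CpGs, was at 65.3% and 75.6% in WT and at 67.6% and 63.1% in ZNF274KO. The 1 kb from the start on, with 66 CpGs, was at 72.2% and 68.0% in WT and at 73.5% and 80.8% in ZNF274KO. Within it, the 28 CpGs of the printed stretch were at 70.8% and 70.5% in WT and at 82.8% and 83.6% in ZNF274KO, a difference of 12.6 points from at most 149 reads per library. The direction of the difference thus depended on the window, and it was -0.745 points when only 500 bases on each side were taken. It also differed between the strands, at 70.6% and 69.0% against 75.3% and 80.1% for reads of the Watson strand and at 71.4% and 72.1% against 67.8% and 70.5% for those of the Crick strand. Of the 47 CpGs that every library covered with 3 reads or more, 28 lay over 75%, 13 between 25% and 75% and 6 under 25% when all libraries were pooled, and 30 had the higher mean in ZNF274KO and 14 the lower.

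**Figure D3:**
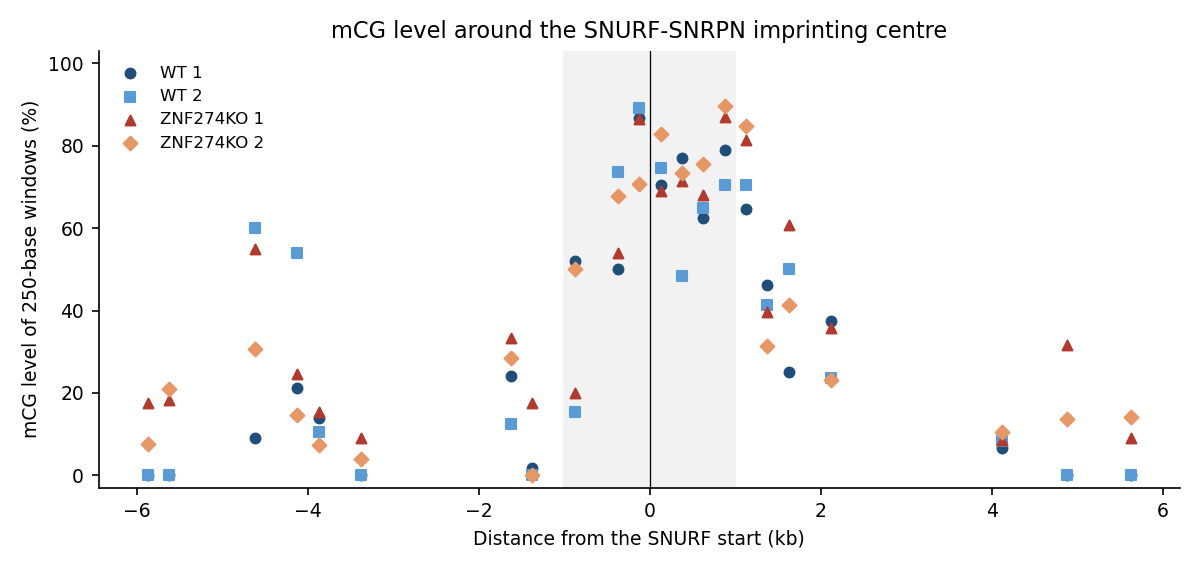
The mCG level (y axis, percent) of windows of 250 bases holding 2 CpGs or more and 10 reads or more per library is plotted against the distance from the SNURF start (x axis, kb), with 1 point per library and the imprinting centre shaded. Points inside the shaded 2 kb are mostly above those outside it and the groups are mixed there, while several windows farther out have both WT libraries at 0.

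The SNORD116 array was low in both groups. From the first base of SNORD116-1 to the last of SNORD116-30 (chr15:25296624-25353499), 785 CpGs had levels of 6.40% (WT 1) and 6.40% (WT 2) and of 10.1% (ZNF274KO 1) and 7.29% (ZNF274KO 2). Both knockout libraries were above both WT libraries, with means of 6.40% ± 0.00433 and 8.67% ± 1.95 (SD, n = 2). The difference of 2.27 points (exact permutation p 0.333) was 0.893 points without ZNF274KO 1. No tile of the array was called by edgeR or limma among 12, while 3 were higher at an unadjusted p under 0.05, and the median difference over the 12 was 1.43 points.

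In percentage points the difference in the array was smaller than in the rest of the region, which started from a higher level, and it was close to the 2.15 points between SNRPN and SNORD116 and the 2.19 points of the SNORD115 array. The array lay 19.2 and 17.4 points under all other CpGs of the region in WT 1 and WT 2, and 24.1 and 21.6 points under them in ZNF274KO 1 and ZNF274KO 2. This gap widened by 4.55 points in ZNF274KO, with no overlap between the groups (exact permutation p 0.333, the smallest that 2 against 2 can give).

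Taken by groups of copies, the level was highest over the first group in every library, but it was uneven there. The tile at 25300001 to 25305000, over SNORD116-3, was at 22.5% and 17.5% in WT and 29.7% and 21.8% in ZNF274KO. The tile just before it was at 5.22% and 2.78% in WT and 11.4% and 7.38% in ZNF274KO. The tile just after it was at 4.37% and 6.17% in WT and 8.91% and 6.47% in ZNF274KO. From SNORD116-1 to SNORD116-9 the level was 8.75% and 7.49% in WT and 13.5% and 9.67% in ZNF274KO. From SNORD116-10 to SNORD116-24 it was 3.33% and 4.92% in WT and 4.51% and 3.50% in ZNF274KO, with the groups overlapping. From SNORD116-25 to SNORD116-30 it was 2.18% and 3.08% in WT and 5.87% and 3.55% in ZNF274KO.

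The snoRNA sequences themselves were read at 66 CpGs, in 23 of the 25 copies. Pooled over the copies, they were at 4.59% and 4.86% in WT and 4.43% and 8.71% in ZNF274KO, and the groups overlapped. The 719 CpGs between the copies were at 6.54% and 6.55% in WT and 10.6% and 7.17% in ZNF274KO. With all libraries pooled, 12 of the 23 copies had no methylated read and 3 were over 20%.

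The pooled level differed among the SNORD116 copies that had the most CpGs. SNORD116-3 had 20 methylated of 69 reads over all libraries (29.0%, 95% Wilson interval 19.6% to 40.6%), and SNORD116-9, with the same bases, had 23 of 93 (24.7%, 17.1% to 34.4%). SNORD116-5, with 3 CpGs, was at the same level, with 18 of 62 (29.0%, 19.2% to 41.3%). SNORD116-8, with CpGs at the same places and 2 other bases changed, had 7 of 93 (7.53%, 3.69% to 14.7%). By library, SNORD116-3 was at 38.1% and 37.5% in WT and 13.0% and 35.3% in ZNF274KO, from as few as 8 reads, and SNORD116-9 at 20% and 33.3% in WT and 19.05% and 29.2% in ZNF274KO. SNORD116-17 had 1 of 94 (1.06%, 0.188% to 5.78%). SNORD116-19 had 0 of 87, which allows a level of up to 3.45%, and SNORD116-16 had 0 of 85, which allows up to 3.53%. These counts are calls at single CpGs, and a molecule that spans several CpGs of a copy gives several calls that are not independent. The intervals and limits cover counting error only, take every call as independent and are therefore too narrow, and a read that holds only the repeated bases could be placed at either of 2 identical copies.

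Promoters here are the 2 kb around a gene start, so those of neighbouring snoRNA copies can share CpGs and flank the copy rather than drive it. By limma 1 of the 97 promoters tested in the region was called, beside 189 of 62080 over the genome. By edgeR 3 of the 97 were called higher, beside 0.772% of all promoters. All 3 belonged to snoRNA copies, as did most of the promoters tested, since the region has 25 SNORD116 and 44 SNORD115 copies. SNORD116-2 went from 0.714% and 0.83% in WT to 12.2% and 4.33% in ZNF274KO (edgeR adjusted p 0.0248). SNORD115-40 went from 0.463% and 0 in WT to 13.8% and 4.04% (adjusted p 0.0258). SNORD115-32 went from 0.858% and 0.538% in WT to 6.87% and 4.49% (edgeR adjusted p 0.0435). These are flanks that were nearly unmethylated in WT, with a knockout level that differed between its libraries by more than the WT level did. Without ZNF274KO 1 the difference was 3.56 points at SNORD116-2 (7.49 with it), 3.804 at SNORD115-40 (8.70 with it) and 3.79 at SNORD115-32 (4.98 with it). At SNORD115-32 the difference was 5.14 points without WT 1 and 4.82 without WT 2, and edgeR did not call it in either case. None of these 3 promoters was called by edgeR without ZNF274KO 1. With all libraries, limma called 1 other promoter and none of these 3.

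The SNORD115 array did not separate the groups. Its 1472 CpGs, from SNORD115-1 to SNORD115-48 (chr15:25415870-25515005), had levels of 7.51% (WT 1) and 8.01% (WT 2) and of 12.3% (ZNF274KO 1) and 7.63% (ZNF274KO 2). Only ZNF274KO 1 stood out, and ZNF274KO 2 lay between the WT libraries, for a difference of 2.19 points (exact permutation p 0.667) that was -0.134 points without ZNF274KO 1. The array lay 1.11 and 1.61 points above the SNORD116 array in WT and 2.21 and 0.333 points above it in ZNF274KO.

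Of its 20 tiles, 1 was called higher, at 25485001 to 25490000 over SNORD115-38 to SNORD115-40, from 0.652% and 0.642% in WT to 7.69% and 3.65% in ZNF274KO (edgeR adjusted p 0.00643). The tile just before it, at 25480001 to 25485000, went the other way, from 14.5% and 16.1% in WT to 11.2% and 9.68% in ZNF274KO, and was not called (adjusted p 0.711). Inside the SNORD115 copies, 59 CpGs were at 7.39% and 8.59% in WT and 15.01% and 9.23% in ZNF274KO. Most copies hold 1 or 2 CpGs, and 4 were at 40% or more over all libraries. The highest pooled level was at the 1 CpG of SNORD115-41, where 7 of 7 and 5 of 5 reads were methylated in WT 1 and WT 2 and 1 of 3 and 3 of 5 in ZNF274KO 1 and ZNF274KO 2, too few reads to compare the groups.

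The stretches around the arrays were low as well. Between SNRPN and SNORD116, 539 CpGs were at 6.88% and 5.92% in WT and 9.19% and 7.91% in ZNF274KO. There, 1 of 14 tiles was called, at 25225001 to 25230000 in the first part of SNHG14, from 9.14% and 9.07% in WT to 25.9% and 19.1% in ZNF274KO (edgeR adjusted p 0.0283). PWAR5 was at 9.88% and 7.64% in WT and 11.6% and 12.8% in ZNF274KO, and PWAR6 at 4.05% and 1.48% in WT and 5.38% and 1.61% in ZNF274KO. PWAR1, between the arrays, was at 1.03% and 0 in WT and 2.08% and 0 in ZNF274KO. The 372 CpGs between the arrays were at 6.11% and 6.43% in WT and 8.88% and 5.30% in ZNF274KO, so the knockout libraries fell on both sides of WT.

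SNHG14, the host transcript, joined 2 very different stretches. Before UBE3A its 3566 CpGs were at 9.96% and 10.2% in WT and 13.7% and 10.1% in ZNF274KO. Where it runs antisense through UBE3A its 608 CpGs were at 89.8% and 91.0% in WT and 89.2% and 88.4% in ZNF274KO. Its whole body was not called (edgeR adjusted p 0.905).

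**Figure D4:**
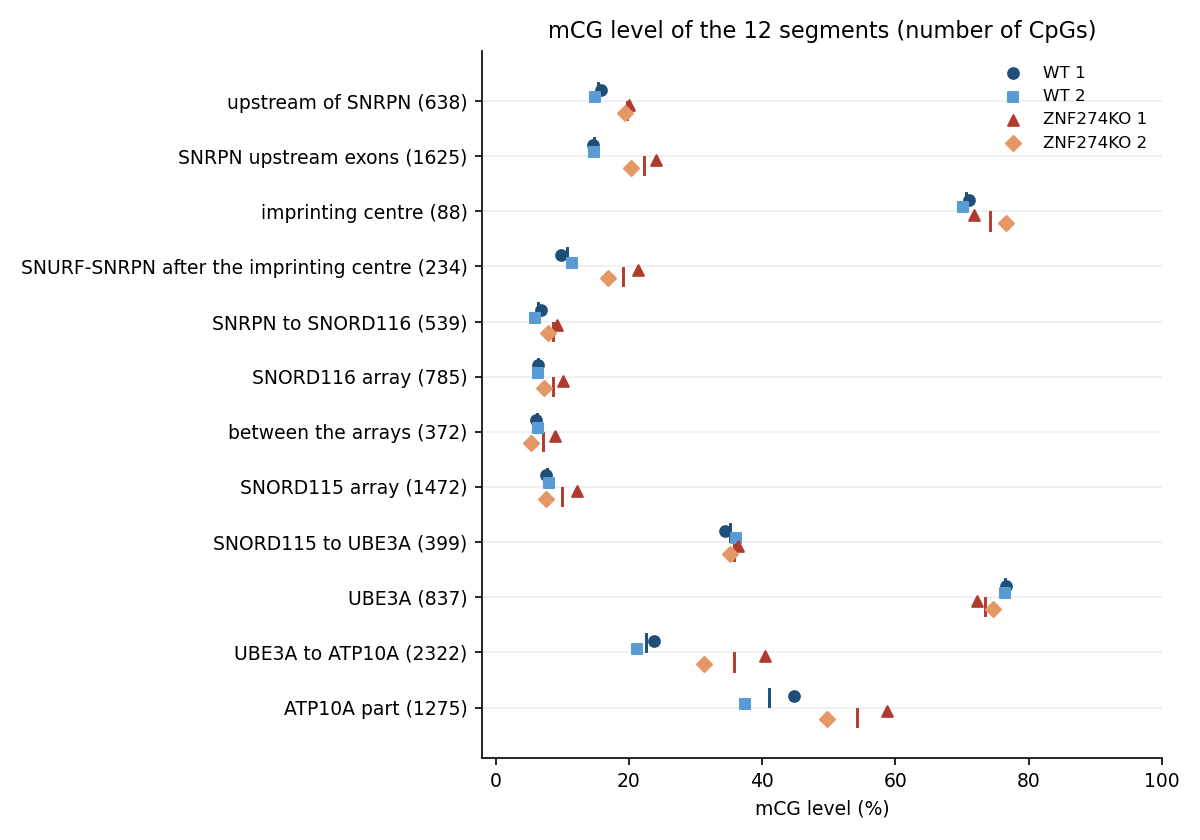
The mCG level (x axis, percent) of each library is plotted for the 12 consecutive segments of the region (y axis, with the number of CpGs in brackets), with short vertical lines at the means of WT (above) and ZNF274KO (below). The groups lie apart most clearly in the SNRPN segments and from UBE3A to ATP10A, where WT is at 22.5% and ZNF274KO at 35.9%, and lie close together over the arrays and from SNORD115 to UBE3A.

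The step into the UBE3A block lay at the same place in all libraries. UBE3A is on the minus strand, so this step lies outside the gene, beyond its end. From 30 kb to 20 kb beyond that end the level was 7.86% and 11.7% in WT and 10.7% and 10.3% in ZNF274KO. From 20 kb to 10 kb beyond it the level was 55.6% and 56.5% in WT and 61.1% and 61.7% in ZNF274KO. In the 10 kb adjoining the end it was 85.9% and 84.3% in WT and 85.2% and 83.3% in ZNF274KO. By tiles, WT averaged 30.5% and ZNF274KO 37.6% at 25560001 to 25565000, and 86.4% and 80.7% in the next tile, so the step took up about 10 kb.

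UBE3A combined a highly methylated body with an unmethylated start. Without 1 kb at its start, the body (713 CpGs) was at 86.7% and 88.0% in WT and 85.6% and 85.4% in ZNF274KO. The 175 CpGs within 1 kb of its start, on the minus strand at base 25684198, were at 3.46% and 1.46% in WT and 0.82% and 2.76% in ZNF274KO. The whole gene, which pools methylated body and unmethylated start by their reads, was at 76.6% and 76.5% in WT and 72.2% and 74.7% in ZNF274KO. It was lower in both knockout libraries but not called (edgeR adjusted p 0.765). Its difference was -3.07 points, beside -1.82 for the body without the start and -0.665 for the start. No tile of its 21 was called by edgeR or limma, and 1 was lower and none higher at an unadjusted p under 0.05. In 8 of the 21 both knockout libraries lay below both WT libraries, and these included every tile from 25640001 to 25675000. Of the 23 tiles of the region at 75% or more in WT, this order was likewise seen in 8, a share like that of the genome, with 64991 of 183422 tiles at such levels.

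The segments beyond UBE3A, from its start to ATP10A and inside ATP10A, had the largest differences of the 12, at 13.3 and 13.2 points. The first of them holds the noncoding transcript LINC02250. The 2322 CpGs between UBE3A and ATP10A (chr15:25684199-25922419) had levels of 23.7% (WT 1) and 21.3% (WT 2) and of 40.5% (ZNF274KO 1) and 31.2% (ZNF274KO 2). The means were 22.5% ± 1.73 and 35.9% ± 6.53 (SD, n = 2), with the groups apart. All 47 tiles there had the higher mean in ZNF274KO, 34 at an unadjusted p under 0.05 and 5 as called, with a median difference of 12.9 points. Set against the SNORD116 array, this stretch was 17.3 and 14.9 points higher in WT and 30.4 and 23.95 points higher in ZNF274KO, a gap that widened by 11.1 points (exact permutation p 0.333).

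The tile with the largest difference, at 25910001 to 25915000 in intergenic sequence, was at 33.3% (WT 1) and 28.8% (WT 2) and at 65.1% (ZNF274KO 1) and 55.6% (ZNF274KO 2). It rose by 29.3 points (edgeR adjusted p 0.00129) from 344 to 501 reads. It was called by edgeR without any 1 of the libraries, but not by limma (adjusted p 0.178). Its printed stretch of 12 CpGs was at 29.4% and 34.5% in WT and 70.97% and 55.3% in ZNF274KO, from 58 to 93 reads. The tile at 25800001 to 25805000 in LINC02250 was at 17.7% and 7.39% in WT and 41.8% and 31.3% in ZNF274KO (24.1 points, edgeR adjusted p 0.037). The tile at 25775001 to 25780000 was at 23.6% and 22.7% in WT and 47.9% and 40.7% in ZNF274KO (21.2 points, edgeR adjusted p 0.0448).

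Also called were 25900001 to 25905000, from 36.2% and 32.1% in WT to 56.3% and 48.5% in ZNF274KO (18.2 points), and 25815001 to 25820000, from 3.92% and 4.64% in WT to 25.6% and 18.9% in ZNF274KO (18.0 points). The 5 tiles thus started from WT means of 4.28% to 34.2%. Without ZNF274KO 1 the differences of the 5 were smaller, at 24.5 points for 25910001, 18.8 for 25800001, 17.6 for 25775001, 14.4 for 25900001 and 14.7 for 25815001. Without ZNF274KO 2 the difference of 25775001 was 24.8 points, although edgeR no longer called that tile. By limma, 25815001 alone of the 5 was called (adjusted p 0.0467).

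ATP10A, which encodes a phospholipid-transporting ATPase, rose over its body. The body runs past the region to base 26110331, and its 3061 CpGs were at 49.5% and 43.2% in WT and 62.4% and 56.3% in ZNF274KO (13.0 points, edgeR adjusted p 0.0219). The 1275 CpGs of it inside the region were at 44.8% and 37.4% in WT and 58.8% and 49.8% in ZNF274KO. All 16 of its tiles had the higher mean in ZNF274KO and 13 were higher at an unadjusted p under 0.05, with none called by edgeR or limma and a median difference of 13.9 points. LINC02250 rose from 20.8% and 18.2% in WT to 36.0% and 26.9% in ZNF274KO (11.95 points, edgeR adjusted p 0.0242). Without ZNF274KO 1 the difference was 7.39 points for LINC02250 (adjusted p 0.365) and 9.93 points for ATP10A (adjusted p 0.452).

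SNRPN, LINC02250 and ATP10A were the 3 gene bodies called of 20 tested among 93 that overlap the region, beside 1.14% of all gene bodies. None was called lower. No snoRNA body had the 5 CpGs that the test required. Without ZNF274KO 1 none of the 3 was called, with 7 of the 20 at an unadjusted p under 0.05, and edgeR then called 274 of 49456 bodies over the genome. By limma none was called, with 8 at an unadjusted p under 0.05, and none of the 49405 bodies over the genome was called either.

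Promoters of other imprinted genes, taken as 1 kb either side of the annotated gene start, were compared in the same fit. Whether these windows cover the stretches that differ in methylation between the parental copies was not checked. Upstream in the same domain, MKRN3 was at 0.686% and 0.864% in WT and 0.46% and 3.12% in ZNF274KO, MAGEL2 at 33.6% and 24.1% in WT and 31.3% and 23.6% in ZNF274KO, and NDN at 73.9% and 76.2% in WT and 66.2% and 77.1% in ZNF274KO. On other chromosomes, KCNQ1OT1 was at 30.5% and 35.0% in WT and 25.97% and 33.1% in ZNF274KO, and H19 at 43.9% and 45.5% in WT and 47.5% and 44.7% in ZNF274KO. PLAGL1 was at 19.03% and 20.4% in WT and 16.5% and 21.4% in ZNF274KO. PEG10 was at 78.2% and 76.7% in WT and 73.6% and 70.5% in ZNF274KO, and MEST at 90.7% and 91.2% in WT and 88.4% and 87.6% in ZNF274KO. For these last 2 of the 8, both knockout libraries lay below both WT libraries, an order seen in 13278 of 62080 promoters over the genome. None of the 8 promoters compared was called by edgeR, and none had an unadjusted p under 0.05.

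**Figure D5:**
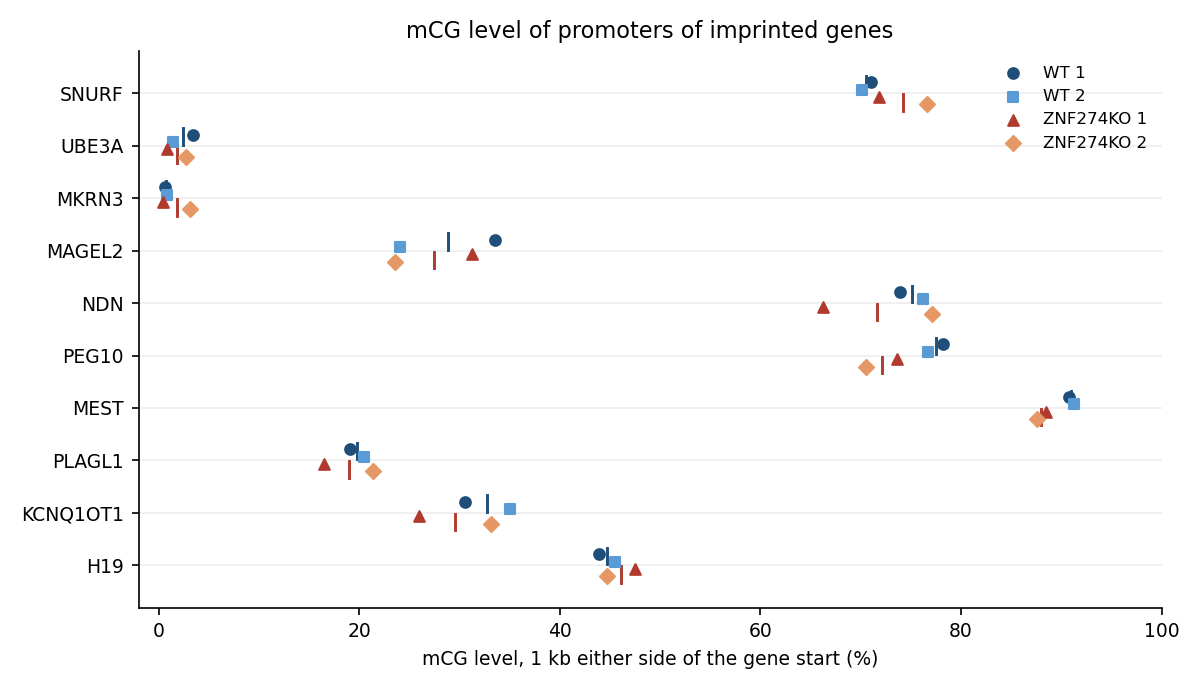
The mCG level (x axis, percent) within 1 kb of the gene start is plotted per library for SNURF and UBE3A and for the 8 promoters of other imprinted genes (y axis), with short vertical lines at the means of WT (above) and ZNF274KO (below). Promoters spread from under 5% (UBE3A, MKRN3) to about 90% (MEST), and the distance between groups is small against that range.

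The neighbouring megabases differed less between the groups. The megabase before the region went from 13.8% and 13.2% in WT to 16.4% and 14.2% in ZNF274KO, and the one after it from 25.4% and 23.4% to 30.8% and 27.3%. By the size of its difference the region ranked 34 among the 2870 megabase bins of the genome that had 10000 reads or more per library, the bin after it 66 and the bin before it 234. The median over all bins was -0.813 points.

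The read depth of the region differed little between the groups. Relative to the reads of the autosomes it held 4.35% more reads in ZNF274KO, a ratio of means of 1.04 (exact permutation p 0.333). Relative to the rest of chromosome 15 the ratio was 0.987. By segment the ratio per read of the autosomes ran from 0.934 at the imprinting centre to 1.15 over SNURF-SNRPN after it, and it was 1.06 between UBE3A and ATP10A and 1.05 over the SNORD116 array. The part of depth in the differences of level was not tested. Allele-specific levels were not analysed here.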

How the data were processed

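The 4 EM-seq libraries, 2 of WT and 2 of ZNF274KO cells, took their group and number from the labels. Reads were aligned by the authors to hg19 plus an rDNA unit with Msuite2 and HISAT2, and the deposited values are read counts for each CpG, split by strand and by base call, with every library in a table of its own and no scaling. How mapping quality and duplicates were handled is not given in the sources used here. Any duplicates would narrow the counting intervals.

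All sites on autosomes and X matched a CG of GRCh37, and gene positions are those of GENCODE release 44 on that build. IPW, PWARSN, SNORD107 and SNORD109A were not analysed here. Counts were summed over tiles of 5 kb, gene bodies and promoters (1 kb either side of the start), keeping those with 20 reads and 5 CpGs or more in each library. For each kind the methylated and unmethylated sums entered the quasi-likelihood test of edgeR 4.0.16 (R 4.3.3), which modelled every library's depth and the log-odds of methylation of the groups, and p was adjusted by Benjamini-Hochberg over the autosomes and X. Levels of single stretches were compared by exact permutation of the libraries. In limma 3.58.1, an alternative, log2 ratios with a pseudocount of 1 were tested. CpGs in sequence that occurs once were found by comparing the 50 converted bases around each with the rest of the genome. They made up 82.3% of the region. Their share was lowest over the SNRPN upstream exons, at 65.5% (1065 of 1625 CpGs), and the difference of that segment with these CpGs alone is not given. Tables were handled in Python 3.11.15.

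The region, its segments and the gene lists were chosen with earlier results of these data known. Segments follow annotated gene boundaries. Of the called tiles, the rule named the 5 that rose most and up to 5 that fell, of which there were none. The other tiles, LINC02250, the called promoters and the windows around UBE3A were named after their values were seen. The comparison promoters were MKRN3, MAGEL2, NDN, KCNQ1OT1, MEST, PEG10, PLAGL1 and H19.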

Additional observations from a re-analysis of the deposited data

How the results depend on the processing

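The depth limits what could be seen: CpGs of the region had a median of 5 or 6 reads per library, 2 libraries per group leave an exact permutation test no p under 0.333, and ZNF274KO 1 lay above ZNF274KO 2 in most tiles. The count of called tiles, 12, was unchanged with a minimum of 10 or 50 reads. Over the genome 2741 of 564290 and 2729 of 561699 tiles were called with these minimums. With tiles shifted by 2.5 kb the count in the region was 13, beside 2732 of 563594. It was 7 of 100 with 10 kb tiles, beside 1424 of 282601 over the genome. With 50 kb tiles it was 0 of 20 (11 at an unadjusted p under 0.05), beside 270 of 56897. With limma it was 2, beside 856 of 563514. Leaving out each library in turn gave 3 to 37 called tiles, 0 to 4 gene bodies (main count 3) and 0 to 7 promoters (main count 3). Each of these fits leaves 1 library in a group. The counts of gene bodies and promoters called over the genome moved in them as well. These ranges therefore do not show a change of the region alone. By limma 0 gene bodies (8 at an unadjusted p under 0.05) and 1 promoter were called, beside 0 of 49405 and 189 of 62080 over the genome. By edgeR 6 of 98 promoters were called with 2 kb on either side of the start, beside 684 of 62983 over the genome. With 500 bases it was 2 of 91, beside 280 of 56284.

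The numbers of the libraries are not stated to pair them, and the replicate differences of WT and ZNF274KO correlated at -0.108 over all tiles. With the replicate number as a block (replicate block), 40 tiles were called, among them all 12, together with 3 gene bodies and 6 promoters, and the level of the whole region differed by the same 6.46 points. Over the genome 4793 of 563514 tiles, 718 of 49405 bodies and 834 of 62080 promoters were called with this block. With the crossed pairing, added after seeing the data, 54 tiles, 5 gene bodies and 10 promoters were called, beside 6609, 830 and 883 over the genome. Without a block the genome counts of tiles were 2668 higher and 73 lower.

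The level of the whole region, of the SNORD116 array and of the array against the rest kept its direction under every alternative run. Leaving out each library gave 3.91 to 9.01 points for the region, 0.893 to 3.65 for the SNORD116 array, -5.83 to -3.27 for the array against the rest, -0.134 to 4.51 for the SNORD115 array, where the sign turned without ZNF274KO 1, and 1.28 to 6.02 for the imprinting centre, which turned to -0.745 with 500 bases either side. With only CpGs in sequence that occurs once the differences were 6.30 points for the region and 2.27 for the SNORD116 array. No CpG of the region lay above 5 times the median depth. The read depth of the region was 4.35% higher in ZNF274KO per read of the autosomes (1.79% to 7.04% without each library) and -1.34% per read of the rest of chromosome 15. The cause was not tested in any of these cases.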
